A study of Mus musculus with 12 samples.

Results

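Liver RNA of mice given an antibody against Ly6G was compared with liver RNA of their Cre controls across all genes measured. The libraries were taken by their labels, 4 anti-Ly6G pools and 4 control pools, which make up 8 of the 12 libraries of the study. Every animal was a male aged 10 weeks with the strain label C57BL/6, and every animal had eaten the MCD diet, which lacks methionine and choline, for 3 weeks. The diet is a standard way to bring about a fatty and inflamed liver. Both groups carried Lyzs-Cre, a Cre recombinase made under the control of the lysozyme 2 gene in myeloid cells, and the labels name no other allele for them. The anti-Ly6G animals differed by the antibody. Its dose, route and timing, and whether controls had another antibody, were not stated in the labels. The sample titles write GR1 where the source names write Ly6G. Each library was made from RNA of 2 animals mixed in equal parts. The protocol speaks of 12 males per genotype, more than 4 pools of 2 hold. The labels do not say how animals were divided among pools, so p-values measure only the spread between these pools. A further group of 4 pools (KO: Lyzs-Cre without p38γ and p38δ, on the same diet) entered the estimate of the spread and is quoted as side values only, because its own comparison uses the same controls.

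A label for the origin of the mitochondria differed between the groups: it read C57 in the 4 control pools and NZB in the 4 anti-Ly6G pools. Within these 8 pools the antibody and this label cannot be told apart. Among the KO pools it read C57 in pools 1 and 2 and NZB in pools 3 and 4. A fit with the label as a covariate takes the label's effect from that difference between KO pools, and its values are called label-adjusted here. They rest on 2 KO pools against 2.

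Ly6G is a surface protein of mouse neutrophils, and antibodies to it are used to remove these cells. Gr1, the name in the titles, is an epitope that Ly6G shares with Ly6C of monocytes. In a fatty liver, neutrophils and monocyte-derived macrophages gather around damaged hepatocytes, hepatic stellate cells turn into matrix-producing myofibroblasts, and hepatocytes change how they handle lipid, amino acids and foreign compounds. Most RNA of whole liver comes from hepatocytes, so genes of the other cells stand low. A lower level of such a gene can come from fewer cells or from less RNA per cell, and bulk data cannot tell these apart.

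Levels are given as signal, the deposited unit, which is reads divided by a TMM-scaled library size (TMM keeps a few very abundant genes from setting that size). Group levels are means ± SD over 4 pools. Changes are anti-Ly6G minus control on the scale log2(signal + 0.5), where 0.5 is the pseudocount, with the standard error of the fit. A gene passed when its limma p, adjusted by Benjamini-Hochberg over 11791 genes, was under 0.05. Depth was 14425778 to 19904871 reads in control pools and 13127902 to 20968803 reads in anti-Ly6G pools, and 3 reads were worth a signal of 0.143 to 0.242. The first principal component of the 8 pools held 55.2% of the variance and placed control pools at -28.0 to -22.9 and anti-Ly6G pools at 23.02 to 28.88. Albumin, the main product of hepatocytes, read 85592 ± 5831 in control and 96215 ± 16480 in anti-Ly6G pools (Alb, log2 0.15, adjusted p = 0.627).

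In anti-Ly6G livers, genes of recruited and lipid-laden macrophages (14 of 21) and of the matrix (37 of 48) fell. So did those of the immediate early response (20 of 34) and of antigen presentation (12 of 23). Genes of sterol synthesis (18 of 26) and chaperones (11 of 19) rose, and neutrophil genes, most of them near the lower end of the table, fell in 6 of 10 cases. Of 11791 genes, 3580 (30.4%) passed, 1775 upward (15.1%) and 1805 downward (15.3%). The median change over all genes was -0.00220. These shares and this median are the background for every gene group below. Most of the changes were small: 2303 of the 3580 (64.3%) were under 1.5-fold, 355 genes (3.01% of all) changed at least 2-fold, and 65 changed at least 4-fold, of which 48 rose and 17 fell. Pools of the groups did not overlap in 3214 genes (27.3%). In all 8 fits that left out 1 library, 2323 of the calls (64.9%) were kept. With the label as a covariate 973 genes passed (8.25%), 517 higher and 456 lower, and 795 of the 3580 calls (22.2%) were among them in the same direction. For named genes that had passed, the label-adjusted value stands beside the change where it no longer passed or differed by more than 1.5 times. Genes that had not passed mostly lack it, and those whose sign turned with the label are named in the closing section on processing. Each gene group below is given with its label-adjusted counts, to be read against that lower share.

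**Figure D1:**
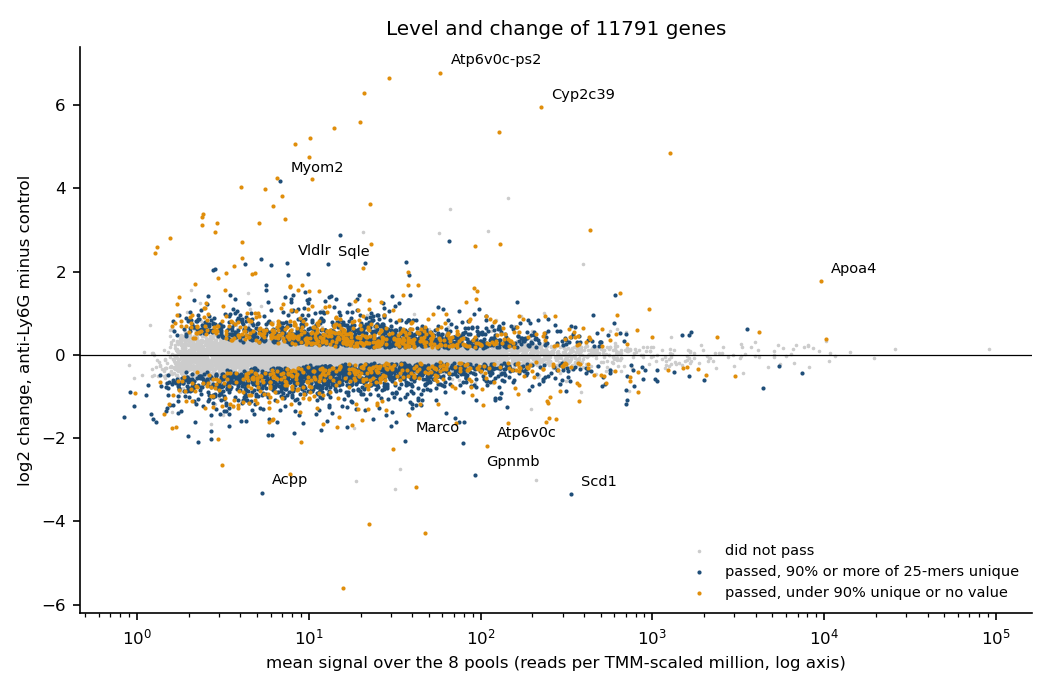
Log2 change (anti-Ly6G minus control, vertical axis) against mean signal over the 8 pools (horizontal log axis) for 11791 genes, 1 point per gene. Grey points did not pass, blue points passed and have at least 90% of their 25-mers unique, orange points passed with fewer. Most points above a change of 4 are orange, while Myom2 at 4.18 is a blue one.

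Most neutrophil genes were low in all groups, and 6 of 10 measured ones fell while 0 rose (label-adjusted 0 up and 3 down). S100a8 and S100a9 encode the subunits of calprotectin, the most abundant protein of neutrophil cytosol. S100a8 read 2.33, 3.71, 2.44 and 2.77 in control pools 1 to 4 and 0.885, 0.811, 0.906 and 0.566 in anti-Ly6G pools 1 to 4 (log2 -1.35 ± 0.18 SE, adjusted p = 0.000157). S100a9 read 3.78, 9.52, 6.00 and 7.73 against 2.53, 1.47, 1.86 and 1.54 (log2 -1.58 ± 0.22 SE, adjusted p = 0.000244). No anti-Ly6G pool reached the lowest control pool in either gene, and the KO pools, at 2.44 to 3.85 and 6.95 to 8.04, lay above every anti-Ly6G pool. Hdc, the histamine-forming enzyme of granulocytes and mast cells, fell from 59.6 ± 14.6 to 35.4 ± 0.814 (log2 -0.72, label-adjusted -1.12). Its anti-Ly6G pools were within 34.7 to 36.2, but KO pools read 28.96, 26.7, 36.1 and 38.2.

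Other members of the neutrophil list gave a mixed picture. Clec4d, a C-type lectin of myeloid cells, fell from 6.31 ± 2.99 to 1.69 ± 0.595 (log2 -1.59, label-adjusted -0.83, adjusted p = 0.285). Itgam, the integrin CD11b shared by neutrophils, monocytes and macrophages, fell from 9.19 ± 4.06 to 2.49 ± 0.694 (log2 -1.62, label-adjusted -0.95, adjusted p = 0.201, 30.7% of its 25-mers unique). Csf3r, the G-CSF receptor, fell by 0.58. It did not pass when 1 library was left out if that was control 2 (-0.53), control 4 (-0.47) or pool 2 or 4 of the anti-Ly6G group (-0.50 each), with the label as covariate (-0.91, adjusted p = 0.0808), or with a replicate block (adjusted p = 0.0549). Cxcr2, the chemokine receptor that draws neutrophils into tissue, read 1.76, 1.80, 1.84 and 1.98 in control and 2.15, 1.88, 2.00 and 1.21 in anti-Ly6G pools (log2 -0.04, adjusted p = 0.872). Lcn2, made by neutrophils and also by stressed hepatocytes, read 80.2, 228, 146 and 161 in control and 179, 150.1, 488 and 163 in anti-Ly6G pools, with pool 3 highest (log2 0.58, adjusted p = 0.321). Summed over the 10 genes the signal was 161 to 350 in control and 200 to 542 in anti-Ly6G pools, most of it Lcn2. The other 11 genes of the list, Ly6g itself among them, were not analysed here. Csf3r, Cxcr2 and Lcn2 were chosen after their values were seen.

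Genes of recruited and lipid-laden macrophages fell together: 14 of 21 fell, 0 rose (label-adjusted 0 up and 2 down), and the median change was -1.04. Gpnmb, a membrane glycoprotein of lipid-laden macrophages, read 97.6, 143, 135 and 279.9 in control and 22.1, 14.5, 43.3 and 11.96 in anti-Ly6G pools, a gap of more than 2-fold between the nearest pools (log2 -2.87 ± 0.39 SE, adjusted p = 0.000227, label-adjusted -2.01, adjusted p = 0.0690). Trem2, the lipid receptor of such cells, fell from 16.2 ± 3.57 to 5.72 ± 1.09 (log2 -1.42). Mmp12, the macrophage elastase, fell from 129.6 ± 62.3 to 28.7 ± 10.9 (log2 -2.12, label-adjusted -1.43, adjusted p = 0.139), Cd68, a lysosomal membrane protein of macrophages, from 36.7 ± 12.8 to 14.5 ± 2.73 (log2 -1.27, label-adjusted -0.85, adjusted p = 0.126), and Lpl, lipoprotein lipase, from 122 ± 45.02 to 38.5 ± 8.57 (log2 -1.60, label-adjusted -1.09, adjusted p = 0.0789). Cd63, a tetraspanin of late endosomes, fell from 40.6 ± 10.7 to 15.9 ± 3.28 (log2 -1.31). Only 2 of the 14 calls, Trem2 and Cd63, were kept with the label as covariate. In the KO pools Gpnmb read 280.3, 289, 121 and 199.5, so the pools labelled NZB were the lower ones there. Adgre1, the pan-macrophage marker F4/80, read 11.8, 20.8, 17.4 and 25.3 in control and 23.96, 15.4, 15.5 and 14.8 in anti-Ly6G pools (log2 -0.09, adjusted p = 0.765), and Ccr2, the monocyte chemokine receptor, read 3.03, 4.41, 5.94 and 7.60 in control and 11.4, 8.87, 6.68 and 3.96 in anti-Ly6G pools (log2 0.50, adjusted p = 0.193, past the threshold at 0.76 without anti-Ly6G 4). Adgre1 and Ccr2 were chosen after their values were seen.

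Resident Kupffer cell genes did not move as a block. Of 11 measured, 3 fell and 1 rose (label-adjusted 0 up and 3 down), and 2 of these calls held in all left-out fits. The median of -0.18 was 0.0150 without anti-Ly6G 2, -0.0937 without control 2 and -0.62 with the label as covariate. Marco, a scavenger receptor for bacteria and debris, read 37.2, 63.3, 62.3 and 72.3 in control and 15.05, 11.2, 20.8 and 8.89 in anti-Ly6G pools (log2 -2.06 ± 0.25 SE, adjusted p = 8.71e-05). It read 57.8, 63.3, 87.8 and 56.3 in the KO pools. No pool of the anti-Ly6G group came near the others. Il18bp, the secreted blocker of interleukin 18, fell from 21.8 ± 1.81 to 15.9 ± 1.62 (log2 -0.45). Clec4f, a lectin found on Kupffer cells alone among mouse macrophages, read 95.5 ± 13.4 in control and 107 ± 19.98 in anti-Ly6G pools (log2 0.15, adjusted p = 0.497). Vsig4, the complement receptor of the same cells, read 42.03 ± 4.80 and 36.1 ± 11.8 (log2 -0.26, adjusted p = 0.345), with overlapping pools. Lyz2, whose locus drives Cre, read 94.98, 25.8, 127 and 133 in control and 39.1, 59.96, 71.6 and 45.3 in anti-Ly6G pools (log2 -0.61, adjusted p = 0.278, 59.5% unique). Without control 2, the pool at 25.8, it passed at -1.15. With the label as covariate the sign turned in Clec4f and in Lyz2. Clec4f and Vsig4 were chosen after their values were seen.

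**Figure D2:**
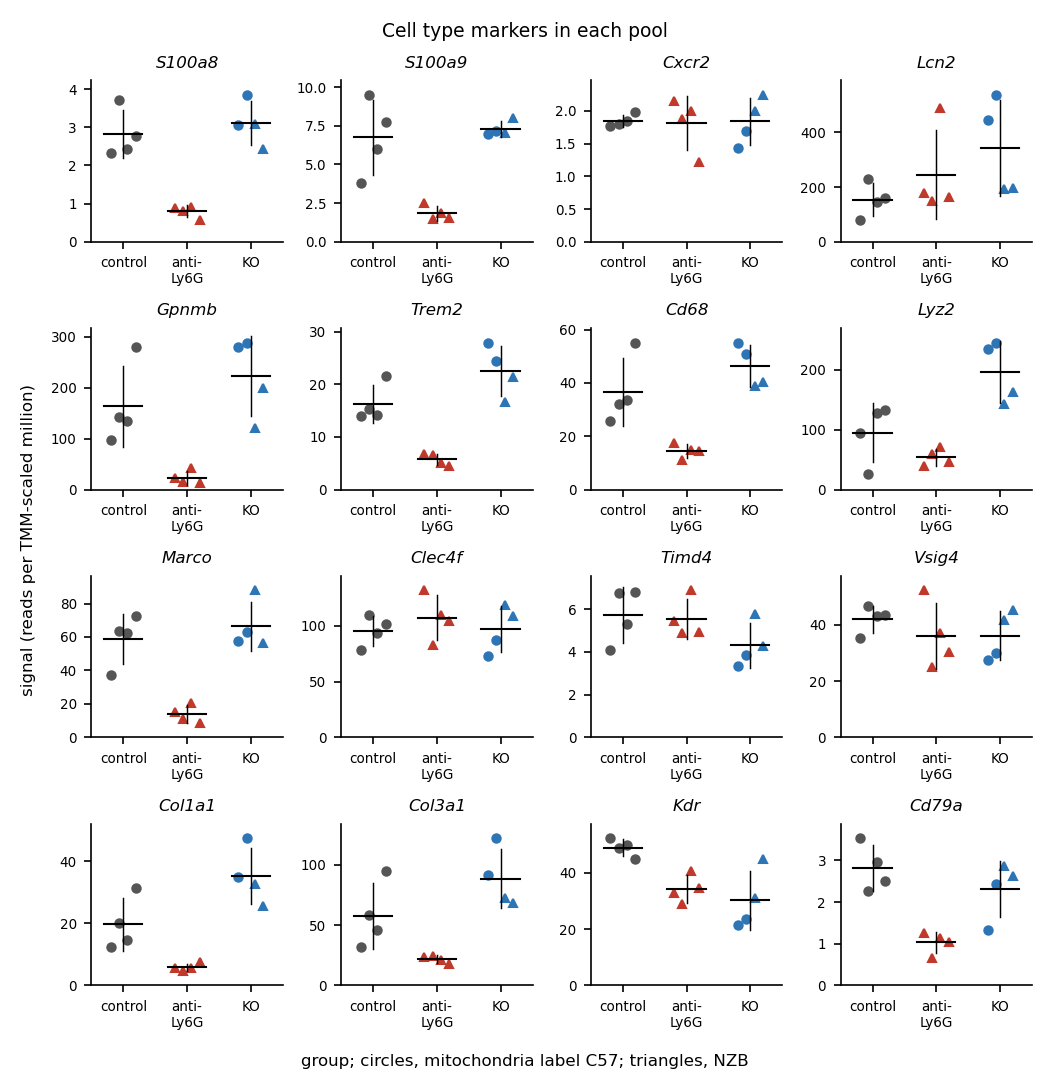
Signal in each pool (vertical axis, in the deposited unit) for 16 cell type markers in control, anti-Ly6G and KO pools. Circles carry the mitochondria label C57 and triangles NZB, and lines show the mean and SD of 4 pools. The anti-Ly6G pools lie below all control pools in S100a8, Gpnmb, Trem2 and Marco, and overlap them in Cxcr2, Clec4f and Vsig4.

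Lymphocyte genes were near the lower end of the table. Cd79a, a chain of the B cell receptor, fell from 2.82 ± 0.560 to 1.03 ± 0.262 (log2 -1.12), and Cd79b, its partner, from 2.10 ± 0.445 to 1.11 ± 0.329 (log2 -0.69, label-adjusted -0.65, adjusted p = 0.240). These were 2 of 4 measured B cell genes (label-adjusted 0 up and 1 down), and the immunoglobulin genes Ighm and Igkc did not pass (log2 -0.35 and -0.11). Ighm and Igkc were chosen with their values in view. Of the T and NK cell list 1 of 15 genes was measured: Ccl5, a chemokine of activated T cells, fell from 5.44 ± 1.26 to 2.33 ± 0.902 (log2 -1.09, label-adjusted -0.85, adjusted p = 0.186), with 1 anti-Ly6G pool (3.65) above 1 control pool (3.62). The other 14 were not analysed here.

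Matrix genes had the largest share of falls among lists with more than 1 measured gene: 37 of 48 fell, 1 rose (label-adjusted 0 up and 9 down), and the median change was -0.60. Plod1, which hydroxylates collagen lysines, read 58.7, 62.9, 51.9 and 64.9 in control and 28.1, 28.6, 30.5 and 35.4 in anti-Ly6G pools (log2 -0.95 ± 0.10 SE, adjusted p = 2.21e-05). Col4a2, a chain of basement membrane collagen, fell from 35.5 ± 7.31 to 16.8 ± 3.02 (log2 -1.05) and Lamc1, a laminin chain of the same membrane, from 21.2 ± 1.90 to 12.7 ± 1.25 (log2 -0.72). Both kept their call with the label as covariate. The fibrillar collagen chains Col1a1 (19.6 to 5.88, log2 -1.59, label-adjusted -1.11, adjusted p = 0.107) and Col1a2 (31.01 to 11.6, log2 -1.32, label-adjusted -1.06, adjusted p = 0.0567) did not keep it. Of the 38 calls, 30 held in all left-out fits and 7 with the label as covariate. Thbs1, a matrix protein that activates latent TGF-beta, fell from 2.69 ± 0.748 to 1.27 ± 0.230 (log2 -0.83). It was chosen after its values were seen.

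Stellate cell and myofibroblast genes fell in 9 of 19 cases with 0 rises and a median of -0.36 (label-adjusted 0 up and 2 down). Of the 9 calls 8 held in all left-out fits and 1 with the label as covariate. Reln, the secreted glycoprotein that marks stellate cells, fell from 60.3 ± 3.54 to 43.7 ± 2.75 (log2 -0.46, label-adjusted -0.93), and Acta2, smooth muscle actin, read 6.37, 1.60, 1.72 and 2.44 in control and 1.45, 1.17, 1.53 and 1.21 in anti-Ly6G pools without passing (log2 -0.77, adjusted p = 0.0724), though it passed without control 2 (-0.96) or control 3 (-0.93) and with edgeR (adjusted p = 0.0444). Both names were chosen with values in view. The list's summed signal was 651 to 838 in control, 493 to 671 in anti-Ly6G and 738 to 915 in KO pools. The macrophage list above summed to 804 to 1765 in control and 375 to 581 in anti-Ly6G pools, so it moved with the matrix genes, and its part in them was not tested. Endothelial genes of the sinusoid, the liver's capillary, fell in 3 of 18 cases (16.7%), of which 2 held in all left-out fits. The summed signal was 513 to 605 in control, 445 to 522 in anti-Ly6G and 332 to 625 in KO pools. With the label as covariate, estimated from those KO pools, 9 of 18 fell and 0 rose, and the median went from -0.19 to -0.76. Among them were Stab1, a scavenger receptor (52.6 to 37.4, log2 -0.49, label-adjusted -0.88), and Cdh5, VE-cadherin (20.3 to 13.7, log2 -0.56, label-adjusted -1.08).

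TGF-beta is the main fibrogenic cytokine of liver, and its genes split. Tgfb1, the ligand, fell from 12.3 ± 1.29 to 6.47 ± 1.38 (log2 -0.90, label-adjusted -0.83, adjusted p = 0.0669). Tgfbr2, the receptor subunit that binds it, read 33.6, 45.7, 37.3 and 41.3 in control and 19.2, 17.5, 20.1 and 17.4 in anti-Ly6G pools (log2 -1.06 ± 0.10 SE, adjusted p = 1.67e-05), with KO pools at 29.8, 34.4, 37.2 and 38.5. Ltbp4, which stores latent ligand in the matrix, fell from 29.3 ± 1.39 to 18.4 ± 4.59 (log2 -0.69, label-adjusted -1.08), and the target gene Id3 fell from 77.8 ± 5.58 to 53.5 ± 7.96 (log2 -0.54, label-adjusted -0.88). Inhbc, the activin C subunit that hepatocytes secrete, rose from 41.7 ± 2.36 to 83.3 ± 11.8 (log2 0.98 ± 0.09 SE, adjusted p = 1.31e-05). In all, 3 of 24 genes of the list rose and 4 fell, which is near the background. With the label as covariate 1 rose and 4 fell. Those falls alone (16.7%) were above the 8.25% of all genes that passed in either direction.

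Inflammatory signalling and immediate early genes fell more often than the background. Of 42 chemokine and NF-kB genes 18 fell and 1 rose (median -0.35, label-adjusted 1 up and 4 down), and of 34 immediate early and feedback genes 20 fell and 0 rose (median -0.60, label-adjusted 0 up and 6 down). Zfp36, the RNA-binding protein tristetraprolin that shortens the life of cytokine mRNAs, read 124, 107, 89.04 and 103 in control and 33.3, 36.04, 36.2 and 39.8 in anti-Ly6G pools (log2 -1.52 ± 0.09 SE, adjusted p = 2.13e-07). Dusp1, the phosphatase that switches off p38 and JNK, fell from 27.1 ± 6.59 to 10.6 ± 0.448 (log2 -1.29), and Ier2, an immediate early gene, from 23.5 ± 3.63 to 14.1 ± 0.359 (log2 -0.70). Cxcl2, a neutrophil chemokine, read 2.33, 2.56, 1.54 and 1.98 in control and 0.379, 0.456, 0.382 and 0.323 in anti-Ly6G pools (log2 -1.54). Each anti-Ly6G pool lay below every control pool in these 4 genes. Tnfaip3, the ubiquitin-editing brake on NF-kB known as A20, fell from 10.01 ± 1.12 to 4.99 ± 0.999 (log2 -0.95), and Icam1, an adhesion molecule for leukocytes, from 22.3 ± 3.08 to 14.6 ± 2.38 (log2 -0.59, label-adjusted -0.47, adjusted p = 0.168). For the p38 cascade itself, 3 of 22 genes fell and 0 rose (label-adjusted 1 up and 2 down). Mapk12, which encodes p38γ, read 2.17 ± 0.397 and 1.67 ± 0.147 (log2 -0.29, adjusted p = 0.247), and passed as lower only with the label as covariate (-0.90, adjusted p = 0.0484). That label effect comes from KO pools 1 to 4, in which p38γ itself was targeted (1.63, 1.79, 2.70 and 3.06), so the adjusted value is uncertain. Map2k6, the kinase that activates p38, fell from 6.74 ± 1.58 to 2.95 ± 1.74 (log2 -1.17, label-adjusted -0.55, adjusted p = 0.505), with overlapping pools.

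Antigen presentation genes fell in 12 of 23 cases, with a median of -0.39, and 1 rose (label-adjusted 1 up and 2 down, median -0.18). Tap1, a subunit of the peptide transporter, read 35.7, 35.1, 25.4 and 32.4 in control and 18.1, 20.2, 19.2 and 16.6 in anti-Ly6G pools (log2 -0.77, label-adjusted -0.52, adjusted p = 0.135). Tapbp, tapasin, which holds class I molecules at that transporter, fell from 72.7 ± 4.11 to 48.4 ± 4.11 (log2 -0.58, label-adjusted -0.31, adjusted p = 0.145), and Psmb8, a subunit of the immunoproteasome, from 27.05 ± 1.90 to 16.3 ± 1.88 (log2 -0.72, label-adjusted -0.27, adjusted p = 0.288). H2-M3, a class Ib molecule that presents formylated peptides, fell from 4.72 ± 0.769 to 1.84 ± 0.428 (log2 -1.16). The exception was Cd1d1, which presents lipids to NKT cells and is made by hepatocytes: it read 263, 307, 283 and 283 in control and 438, 457, 373 and 391 in anti-Ly6G pools (log2 0.54 ± 0.08 SE, adjusted p = 0.000269). Of the 13 calls, 3 were kept with the label as covariate. The interferon list, by contrast in its counts, stood near the background, with 5 of 46 genes up and 7 down (label-adjusted 1 up and 0 down). Oas2, an antiviral RNA sensor, rose from 3.11 to 5.92 (log2 0.84, label-adjusted 0.41, adjusted p = 0.455) and Bst2, tetherin, fell from 107 ± 5.87 to 78.1 ± 4.55 (log2 -0.46, label-adjusted -0.39, adjusted p = 0.0573).

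Lysosomal genes fell in 19 of 45 cases and rose in 4 (median -0.19, label-adjusted 1 up and 2 down, median -0.0789). Of the 23 calls 14 held in all left-out fits and 3 with the label as covariate. Psap, the precursor of the saposins that help degrade sphingolipids, read 861, 966, 942 and 1169 in control and 557, 509, 644 and 644 in anti-Ly6G pools (log2 -0.74, label-adjusted -0.61, adjusted p = 0.0537). Glb1, beta-galactosidase, fell from 7.79 ± 1.55 to 2.96 ± 1.05 (log2 -1.30, label-adjusted -1.15, adjusted p = 0.0675), Lgmn, the protease legumain, from 136 ± 20.99 to 81.7 ± 13.4 (log2 -0.73, label-adjusted -0.71, adjusted p = 0.0575), and Laptm5, a lysosomal protein of blood cells, from 59.1 ± 12.6 to 25.4 ± 5.65 (log2 -1.21). The list's summed signal, 8119 to 9145 in control and 7042 to 7358 in anti-Ly6G pools, did not overlap. It was 8110 to 9294 in KO pools. Laptm5 and Cd63 are also macrophage genes, and the part of such cells in the fall of the list was not tested.

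**Figure D3:**
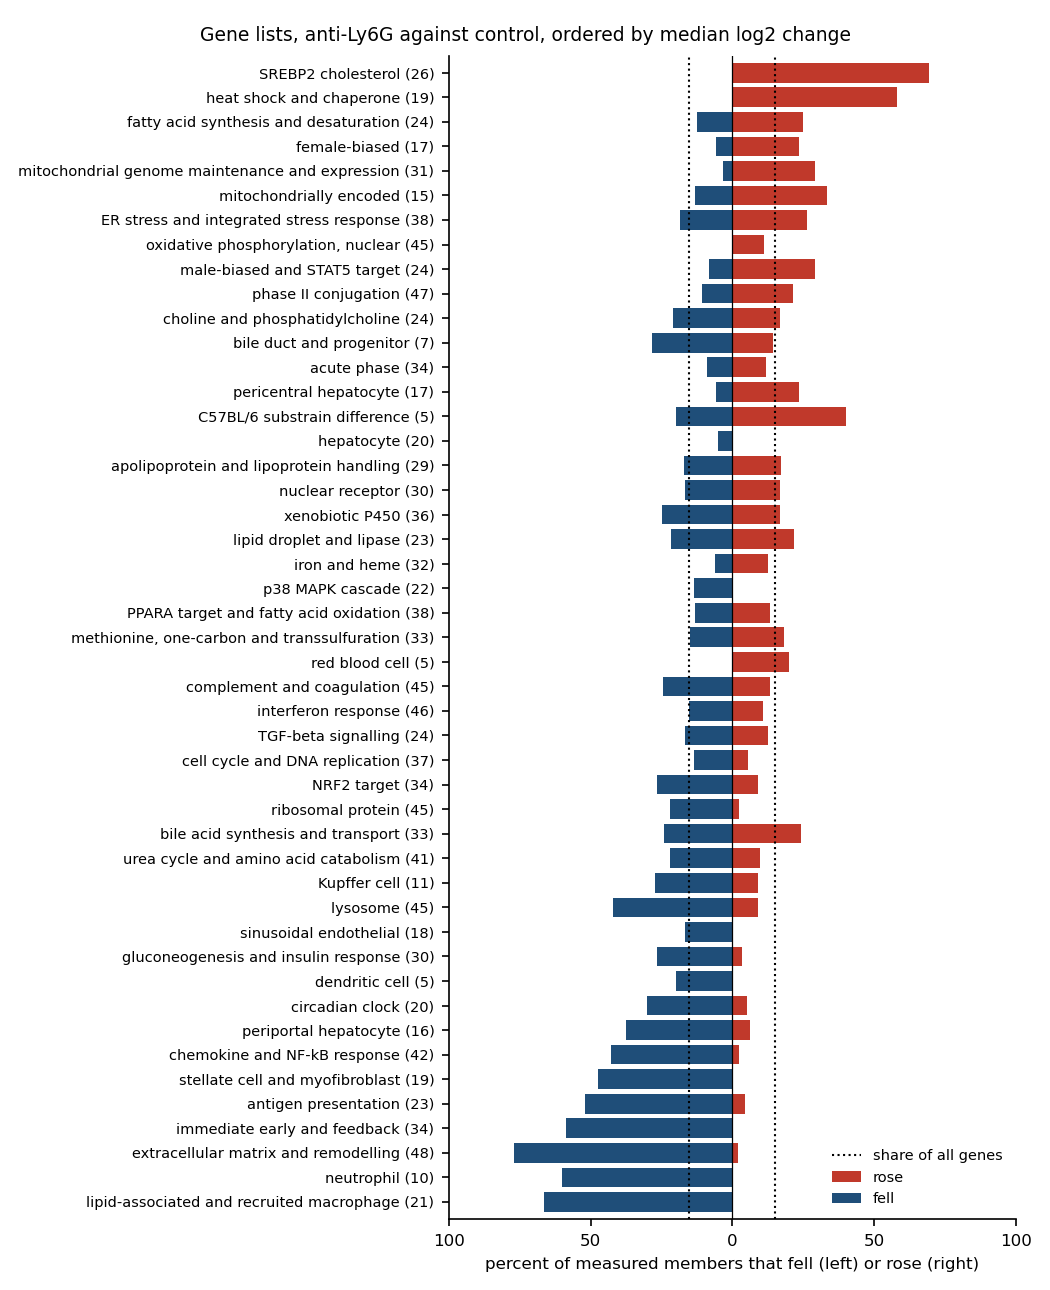
Share of measured members (number in parentheses) of each gene list with at least 5 measured members that rose (right, red) or fell (left, blue) in anti-Ly6G against control pools, ordered by the list's median log2 change. Dotted lines mark the shares over all genes, 15.1% up and 15.3% down. The sterol and chaperone lists reach farthest to the right, and those of matrix and of recruited and lipid-laden macrophages farthest to the left.

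Sterol synthesis was the list with the largest share of rises: 18 of 26 genes rose, 0 fell (label-adjusted 10 up and 0 down), and the median change was 0.75. The transcription factor SREBP2 turns these genes on together when the endoplasmic reticulum is short of cholesterol. Sqle, squalene epoxidase, read 3.66, 4.46, 3.44 and 5.09 in control and 13.02, 29.5, 25.99 and 17.6 in anti-Ly6G pools (log2 2.19 ± 0.22 SE, adjusted p = 2.62e-05). Cyp51, the sterol demethylase, read 18.5, 13.98, 14.6 and 13.6 in control and 41.5, 89.7, 67.6 and 46.9 in anti-Ly6G pools (log2 1.93 ± 0.22 SE, adjusted p = 6.18e-05). Nsdhl and Acat2, a later sterol enzyme and the enzyme that starts the pathway from acetyl-CoA, rose from 7.00 ± 0.517 to 19.3 ± 4.51 (log2 1.38) and from 18.8 ± 1.63 to 52.3 ± 5.92 (log2 1.45, 54.5% unique). Pool 2 of the anti-Ly6G group was the highest in Sqle, Cyp51 and Nsdhl, and pool 1 the lowest. The KO pools read 6.60 to 10.7 in Sqle and 21.1 to 35.1 in Cyp51, between both groups.

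The sterol response element written TCACNCCAC was found on either strand in the RefSeq promoter of 1 of 17 genes of the list (Hmgcs1), and in 1.51% of 9045 tested genes with a promoter. That window ran from 250 bases before to 50 after the start. Hmgcs1 is named for the motif alone.

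Fatty acid genes did not follow the sterol genes. Scd1, the desaturase that makes oleate, read 302, 915, 301 and 926 in control and 63.9, 37.9, 104 and 27.9 in anti-Ly6G pools (log2 -3.34 ± 0.42 SE, adjusted p = 0.000129). Control pools 2 and 4 stood far above control pools 1 and 3, and every anti-Ly6G pool lay below all of them. Scd2, a close relative of Scd1, fell from 9.19 ± 0.964 to 5.44 ± 1.14 (log2 -0.72), and Srebf1, the gene of the factor that drives fatty acid synthesis, from 59.4 ± 31.6 to 27.1 ± 6.68 (log2 -1.03, label-adjusted -0.85, adjusted p = 0.270). Me1, which supplies NADPH for lipid synthesis, rose from 73.5 ± 6.86 to 142 ± 16.9 (log2 0.94, label-adjusted 0.49, adjusted p = 0.0729), Fads2, a desaturase of polyunsaturated fatty acids, from 457 ± 23.03 to 641 ± 87.5 (log2 0.48, label-adjusted 0.32, adjusted p = 0.214) and Dgat2, which makes triglyceride, from 273 ± 27.3 to 437 ± 86.6 (log2 0.66, label-adjusted 1.07). Over the list of 24 genes 6 rose and 3 fell (label-adjusted 2 up and 2 down). Srebf1 and Dgat2 were chosen after their values were seen.

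Among lipoprotein genes, 5 of 29 rose and 5 fell (label-adjusted 5 up and 1 down). Vldlr, a receptor that takes up triglyceride-rich particles, read 3.03, 1.55, 2.55 and 2.38 in control and 13.1, 16.3, 11.1 and 10.1 in anti-Ly6G pools (log2 2.20 ± 0.18 SE, adjusted p = 3.69e-06). Apoc3, an apolipoprotein that slows their clearance, rose from 1360 ± 165 to 1983 ± 232 (log2 0.54), and Apoa4, an apolipoprotein of liver and gut, from 4331 ± 778 to 14751 ± 1878 (log2 1.78, label-adjusted 0.94, 34.3% unique). Lipid droplet genes split 5 to 5 of 23 (label-adjusted 1 up and 2 down): Plin2, the coat protein of droplets, rose from 1372 ± 131 to 1900 ± 134 (log2 0.47, label-adjusted 0.22, adjusted p = 0.398) and Ces1d, a triglyceride hydrolase, fell from 459.6 ± 77.6 to 284 ± 73.98 (log2 -0.71, label-adjusted -0.54, adjusted p = 0.235). The list of PPARA targets and fatty acid oxidation, the pathway that burns fatty acids, split 5 to 5 of 38 (label-adjusted 1 up and 3 down). Its members Fabp1, a fatty acid carrier (2799 to 4310, log2 0.61, label-adjusted 0.56, adjusted p = 0.146), and Fgf21, a hormone of fasting and amino acid shortage (18.8 to 39.4, log2 1.05, label-adjusted 0.18, adjusted p = 0.657), rose.

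Drug-metabolising genes changed in both directions within 1 family. Cytochrome P450 enzymes oxidise foreign compounds, steroids and fatty acids, and 6 of 36 rose while 9 fell (label-adjusted 5 up and 2 down). Cyp2c39 read 8.13, 4.51, 6.53 and 7.80 in control and 412, 419, 507 and 422 in anti-Ly6G pools (log2 5.95 ± 0.17 SE, adjusted p = 3.16e-11, 65.5% unique), and its KO pools read 6.03, 3.53, 5.24 and 4.93. The neighbouring Cyp2c37 fell from 367 ± 98.6 to 117 ± 20.1 (log2 -1.61, label-adjusted -0.86, adjusted p = 0.121, 45.3% unique) and Cyp2c68 from 218 ± 29.3 to 113 ± 5.28 (log2 -0.94, 30.1% unique). Because these genes share much sequence, how reads were split among them is uncertain. Cyp2b10, the classic target of the nuclear receptor CAR, read 0.819, 0.501, 0.950 and 1.32 in control and 19.8, 14.3, 6.34 and 14.4 in anti-Ly6G pools (log2 3.27, 74.5% unique). Cyp2j5, an epoxygenase with 93.4% of its 25-mers unique, rose from 206 ± 10.3 to 337 ± 22.5 (log2 0.71).

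Conjugating enzymes, which make compounds water-soluble, rose in 10 of 47 cases and fell in 5 (label-adjusted 10 up and 2 down). Ugdh, which makes the sugar donor for glucuronidation, read 57.1, 53.2, 55.2 and 83.7 in control and 135, 135, 119 and 141 in anti-Ly6G pools (log2 1.11 ± 0.13 SE, adjusted p = 0.000104). Sult1e1, the estrogen sulfotransferase, read 8.45, 37.02, 6.36 and 16.3 in control and 135, 139, 24.04 and 159 in anti-Ly6G pools (log2 2.72, label-adjusted 4.21), so that anti-Ly6G 3 lay below control 2. Gsto1 and Gstm1, glutathione transferases, fell from 104 ± 8.18 to 55.1 ± 2.56 (log2 -0.90) and from 1070 ± 80.8 to 583 ± 104 (log2 -0.89, 67.4% unique). Export and import of bile acids and drugs also split. Of 33 genes of bile acid synthesis and transport 8 rose and 8 fell (label-adjusted 4 up and 3 down). Abcc2 and Abcc3, export pumps of the canalicular and the blood-facing membrane, fell from 404 ± 28.5 to 262 ± 35.02 (log2 -0.63) and from 244 ± 35.02 to 137 ± 17.8 (log2 -0.83), whereas Slco1b2, an uptake carrier, rose from 434 ± 28.8 to 758 ± 176 (log2 0.78). Slc10a2, the bile acid carrier best known from ileum and bile duct, read 1.39, 2.10, 2.32 and 1.59 in control and 9.23, 7.45, 15.1 and 8.81 in anti-Ly6G pools (log2 2.15). Of 34 NRF2 targets, the genes that meet oxidative stress, 9 fell and 3 rose (label-adjusted 3 up and 4 down). Hmox1, heme oxygenase, was among those that fell (74.7 to 34.7, log2 -1.08, label-adjusted -0.91, adjusted p = 0.141), and it is also a macrophage gene.

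Amino acid and glucose genes of periportal hepatocytes fell more often than they rose. The periportal list had 6 of 16 lower and 1 higher (label-adjusted 1 up and 3 down). Its median of -0.34 was -0.21 without control 1 and -0.20 with the label as covariate. The pericentral list had 1 of 17 lower and 4 higher (label-adjusted 3 up and 0 down). Of 30 genes of gluconeogenesis and insulin response 1 rose and 8 fell (label-adjusted 1 up and 6 down). Of 41 genes of the urea cycle and amino acid breakdown 4 rose and 9 fell (label-adjusted 3 up and 2 down). Hal, which starts histidine breakdown, read 1096, 904, 1022 and 862 in control and 493, 448, 414 and 488 in anti-Ly6G pools (log2 -1.07 ± 0.11 SE, adjusted p = 2.45e-05). Cps1, the entry enzyme of the urea cycle, read 6456, 4636, 6070 and 5066 in control and 3083, 2424, 4407 and 3155 in anti-Ly6G pools (log2 -0.79, label-adjusted -1.18). G6pc, which releases free glucose, fell from 415 ± 161 to 215 ± 18.9 (log2 -0.88, label-adjusted -1.08, adjusted p = 0.0648), Got1, the cytosolic aspartate aminotransferase, from 915 ± 287 to 491 ± 46.8 (log2 -0.85, label-adjusted -0.92, adjusted p = 0.0732) and Igfbp2, an insulin-responsive binding protein for IGF, from 2422 ± 327 to 1586 ± 76.1 (log2 -0.60). In Cps1, G6pc and Got1 control 1 was the highest of the control pools. Lgr5, the pericentral receptor of the Wnt pathway, rose from 4.01 ± 0.940 to 7.68 ± 3.15 (log2 0.81, label-adjusted 0.94, adjusted p = 0.152). Methionine and choline are what the diet lacks. Genes of methionine, one-carbon and transsulfuration metabolism split 6 up and 5 down of 33 (label-adjusted 5 up and 1 down), among them Cth, which makes cysteine (966 to 433, log2 -1.17, label-adjusted -1.29, adjusted p = 0.0608), Mtap, which salvages methionine (22.7 to 34.9, log2 0.62, label-adjusted 1.04), and Mat2a, a synthase of S-adenosylmethionine (126 to 163, log2 0.38, label-adjusted 0.23, adjusted p = 0.278).

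Plasma protein genes moved apart. In the complement and coagulation list 6 of 45 rose and 11 fell. With the label as covariate the balance was the reverse, with 9 up and 1 down, and the median went from -0.0354 to 0.21. C8b, a subunit of the membrane attack complex, read 85.9, 87.98, 94.7 and 85.3 in control and 133, 138, 181 and 129 in anti-Ly6G pools (log2 0.70, label-adjusted 1.21), and C8a, its partner, rose from 125 ± 25.3 to 215 ± 55.1 (log2 0.76, label-adjusted 1.33). C8a was chosen with its values in view. Mbl1, a lectin that starts complement, rose from 98.4 ± 9.49 to 154 ± 26.3 (log2 0.63) and F9, coagulation factor IX, from 179 ± 11.9 to 238 ± 26.2 (log2 0.41, label-adjusted 0.63). F7, coagulation factor VII, fell from 59.1 ± 4.52 to 40 ± 3.87 (log2 -0.56, label-adjusted -0.06, adjusted p = 0.830). Both pentraxins rose: Crp from 234 ± 21.2 to 349 ± 55.7 (log2 0.56, label-adjusted 0.94) and Apcs, serum amyloid P, from 312 ± 89.1 to 593 ± 77.8 (log2 0.96, label-adjusted 1.79). The acute phase list as a whole had 4 of 34 up and 3 down, which is under the background. With the label as covariate 7 rose and 0 fell (20.6%, above the 8.25% of all genes), and the median went from 0.0916 to 0.62. Socs3, the feedback inhibitor of interleukin 6 signalling, and Lbp, the carrier of endotoxin, fell from 22.8 ± 6.97 to 11.2 ± 2.71 (log2 -0.97, label-adjusted -0.92, adjusted p = 0.142) and from 187 ± 13.8 to 122 ± 29.6 (log2 -0.64, label-adjusted -0.24, adjusted p = 0.512).

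Molecular chaperones rose in 11 of 19 cases. Chaperones hold and refold proteins, and heat shock factor 1 turns on many of their genes by binding inverted GAA repeats, the heat shock element. In the list 0 genes fell (median change 0.31), and 10 of the 11 held in all left-out fits, 4 with the label as covariate. The promoters of 3 of the risers are shown because they hold the core of this element, GAANNTTC, whose reverse complement reads the same. They are RefSeq sequences of GRCm38.p6, 5′ to 3′ in the direction of the gene, from 250 bases before to 30 after its start, with the matches in capitals.
Hsph1, chr5:149636286-149636565, minus strand: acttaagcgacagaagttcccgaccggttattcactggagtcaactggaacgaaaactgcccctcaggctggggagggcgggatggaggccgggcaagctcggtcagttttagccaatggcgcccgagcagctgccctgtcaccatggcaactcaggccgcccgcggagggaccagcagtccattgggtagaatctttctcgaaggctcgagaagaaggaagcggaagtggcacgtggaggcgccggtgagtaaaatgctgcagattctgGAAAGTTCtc
Chordc1, chr9:18292017-18292296, plus strand: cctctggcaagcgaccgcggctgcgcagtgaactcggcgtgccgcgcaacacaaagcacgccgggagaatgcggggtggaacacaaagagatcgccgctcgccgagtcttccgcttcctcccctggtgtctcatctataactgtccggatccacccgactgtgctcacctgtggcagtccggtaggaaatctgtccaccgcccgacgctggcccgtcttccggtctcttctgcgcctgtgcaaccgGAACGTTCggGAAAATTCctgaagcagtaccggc
Dnaja1, chr4:40722218-40722497, plus strand: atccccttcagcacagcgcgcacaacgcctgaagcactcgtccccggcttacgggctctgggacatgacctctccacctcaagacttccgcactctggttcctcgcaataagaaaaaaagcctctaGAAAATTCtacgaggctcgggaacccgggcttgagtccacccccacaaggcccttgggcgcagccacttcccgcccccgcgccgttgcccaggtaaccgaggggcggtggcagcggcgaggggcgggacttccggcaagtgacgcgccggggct

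The match began 20 bases after the start in Hsph1, 4 bases before and 6 bases after it in Chordc1, and 124 bases before it in Dnaja1. In windows up to 50 bases after the start, GAANNTTC was found in 7.05% of 9045 tested genes with a promoter and in 10 of 14 genes of the chaperone list (71.4%). It was found in 6 of the 10 risers with a promoter and in 4 of the 4 others. Hsph1, the exchange factor HSP110 that restarts HSP70, read 9.27, 8.52, 12.1 and 11.8 in control and 34.3, 24.5, 27.9 and 29.4 in anti-Ly6G pools (log2 1.44 ± 0.13 SE, adjusted p = 8.00e-06). Chordc1, a co-chaperone of HSP90, read 7.37, 5.96, 9.44 and 9.32 in control and 23.4, 21.7, 19.1 and 19.2 in anti-Ly6G pools (log2 1.34 ± 0.14 SE, adjusted p = 3.29e-05). Dnaja1, a J-domain partner of HSP70, read 98.3, 125, 134 and 146 in control and 209, 208, 194 and 183 in anti-Ly6G pools (log2 0.67 ± 0.10 SE, adjusted p = 0.000442, 76.04% unique). The lowest anti-Ly6G pool was above the highest control pool in these 3 genes, and the KO pools, at 12.3 to 14.7, 10.6 to 14.1 and 117 to 125, stayed below every anti-Ly6G pool. Dnajb1, the inducible HSP40, rose from 11.5 ± 0.987 to 19.6 ± 1.90 (log2 0.74) and Hsp90aa1, the inducible HSP90, from 105 ± 9.59 to 164 ± 15.03 (log2 0.64, label-adjusted 0.36, adjusted p = 0.128, 46.6% unique). Hspa8, the constitutive HSP70, read 1085, 853, 645 and 723 in control and 893, 739, 948 and 1143 in anti-Ly6G pools (log2 0.18, adjusted p = 0.386, 53.2% unique), with overlapping pools. It was chosen after its values were seen.

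Genes of the unfolded protein response, which serves the endoplasmic reticulum, and of the integrated stress response changed in both directions. Of 38 such genes 10 rose and 7 fell (label-adjusted 2 up and 1 down). Xbp1, a transcription factor of the unfolded protein response, rose from 81.1 ± 7.49 to 113 ± 9.11 (log2 0.48). Trib3, a pseudokinase induced by amino acid shortage, fell from 27.5 ± 5.43 to 14.2 ± 2.96 (log2 -0.93, label-adjusted -0.67, adjusted p = 0.150).

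**Figure D4:**
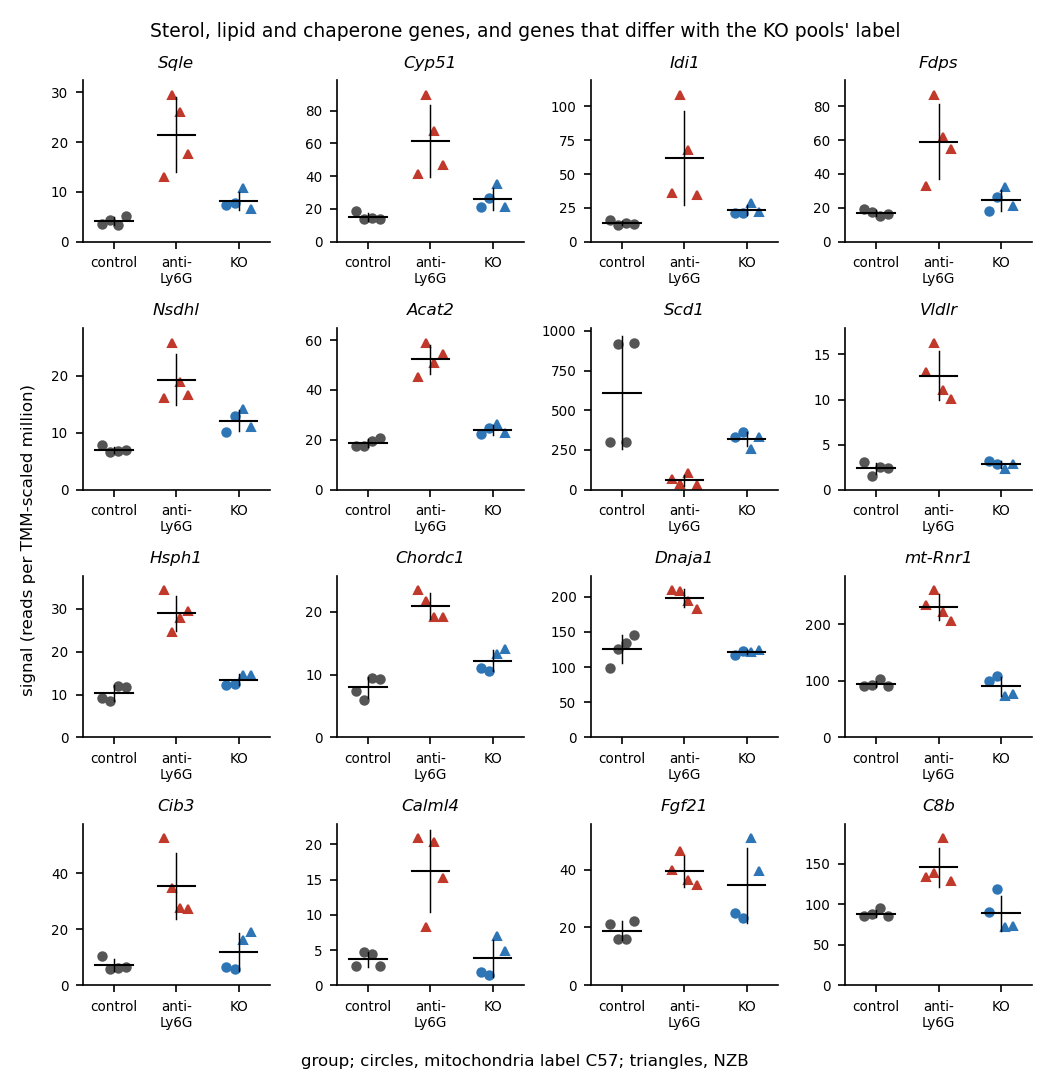
Signal in each pool (vertical axis, in the deposited unit) for 16 sterol, lipid, chaperone and other genes in control, anti-Ly6G and KO pools. Circles carry the mitochondria label C57 and triangles NZB, and lines show the mean and SD of 4 pools. Anti-Ly6G pools lie above all control pools in Sqle, Cyp51, Vldlr, Hsph1 and mt-Rnr1, and the KO pools labelled NZB lie above the other KO pools in Cib3, Calml4 and Fgf21 and below them in C8b.

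Genes of the mitochondrial genome were read because the label that differs between the groups names the origin of the mitochondria. Of the 15 mitochondrially encoded genes 5 rose and 2 fell (label-adjusted 3 up and 0 down). The ribosomal RNA mt-Rnr1 read 90.6, 92.8, 104 and 91.5 in control and 234, 260.2, 223 and 206 in anti-Ly6G pools (log2 1.28 ± 0.12 SE, adjusted p = 9.80e-06, label-adjusted 1.74). The KO pools read 99.6, 109, 74.2 and 77.5, so the KO pools labelled NZB were the lower ones. The larger ribosomal RNA mt-Rnr2 rose from 222 ± 10.8 to 337 ± 68.7 (log2 0.58). Among 31 nuclear genes that maintain or express that genome 9 rose and 1 fell (label-adjusted 1 up and 1 down). Twnk, its helicase, rose from 16.9 ± 3.08 to 27.05 ± 1.92 (log2 0.68, label-adjusted 0.53, adjusted p = 0.113) and Polg, its polymerase, from 37.9 ± 4.98 to 54.99 ± 6.81 (log2 0.53, label-adjusted 0.40, adjusted p = 0.169). Mrps12, a protein of the mitochondrial ribosome, fell from 27.2 ± 1.58 to 16.01 ± 2.09 (log2 -0.76).

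Genes known to differ between C57BL/6 substrains were looked at because strain background was labelled alike in all groups. Nnt, a mitochondrial transhydrogenase that carries a deletion in C57BL/6J mice, read 77.4, 69.4, 115 and 89.1 in control and 127, 148, 155 and 172 in anti-Ly6G pools (log2 0.80 ± 0.13 SE, adjusted p = 0.00100, 51.7% unique). Cyfip2, which carries a substitution in C57BL/6N mice, read 4.03, 4.06, 3.74 and 6.08 in control and 1.45, 2.18, 2.58 and 1.45 in anti-Ly6G pools (log2 -1.05 ± 0.20 SE, adjusted p = 0.00181). Of the 5 measured genes of this list 2 rose, 1 fell and 2 did not pass (label-adjusted 1 up and 1 down). No group had an Nnt level at 0. A total over the whole gene does not show whether a deletion within it was present, and this was not tested.

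Clock genes fell in 6 of 20 cases and rose in 1 (label-adjusted 1 up and 0 down). Nr1d1, the nuclear receptor REV-ERB alpha that represses the clock's activators, read 216, 187, 125 and 131 in control and 64.4, 63.2, 97.6 and 81.3 in anti-Ly6G pools (log2 -1.08, label-adjusted -0.99, adjusted p = 0.0642). Arntl, the activator BMAL1, fell from 12.4 ± 5.77 to 4.35 ± 1.96 (log2 -1.34, label-adjusted -1.76, adjusted p = 0.0989), and Ciart, a repressor of it, from 22.6 ± 8.79 to 6.62 ± 3.07 (log2 -1.73, label-adjusted -0.86, adjusted p = 0.358). Ciart stood at 3.27, 6.07, 3.08 and 1.58 in the KO pools and at 3.79, 8.52, 4.24 and 9.94 in the anti-Ly6G pools, which overlap. The labels do not state the hour at which livers were taken. Of 7 calls 0 were kept with the label as covariate.

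Among protein-coding genes with at least 90% unique 25-mers, a mean of at least 5 in the higher group and no overlap, 12 largest rises and 12 largest falls were named by the rule. All 24 held in every left-out fit and with edgeR, and 15 were kept with the label as covariate. Of all 3580 calls, 64.9% held in every left-out fit and 22.2% with the covariate. The rule picks large changes without overlap, which favours such holding, so it is no separate support. Myom2, a protein of the sarcomere's M-band, read 0.126, 0.251, 0.416 and 0.0661 in control and 16.4, 6.13, 11.2 and 19.8 in anti-Ly6G pools (log2 4.18 ± 0.30 SE, adjusted p = 1.32e-06). The KO pools read 0.306, 0.369, 0.791 and 0.526. In control pools these levels amount to few reads, so the change on this scale depends on the pseudocount. Elovl7, an elongase of saturated fatty acids, read 1.26, 0.902, 1.07 and 2.64 in control and 12.4, 11.3, 6.72 and 5.90 in anti-Ly6G pools (log2 2.29). Among the other rises were Fam131c (12.5 to 61.1, log2 2.23, label-adjusted 1.58, adjusted p = 0.0523) and H2-T24, a class Ib histocompatibility gene (2.44 to 8.81, log2 1.67).

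Acpp, prostatic acid phosphatase, fell from 11.5, 12.7, 7.72 and 8.06 in control pools to 1.71, 0.355, 0.238 and 0.323 in anti-Ly6G pools (log2 -3.31 ± 0.32 SE, adjusted p = 1.74e-05). Anti-Ly6G 1 was the highest of its group. Defb1, a secreted antimicrobial peptide, fell from 12.9 ± 1.79 to 3.39 ± 1.61 (log2 -1.88), Tedc2, a tubulin-associated protein of centrioles, from 45.9 ± 9.76 to 14.1 ± 4.57 (log2 -1.70) and Miip, an inhibitor of cell migration, from 18.7 ± 5.65 to 4.99 ± 1.48 (log2 -1.80). Cux2, a liver factor higher in females, fell from 25.2 ± 8.95 to 8.16 ± 5.55 (log2 -1.74, label-adjusted -2.15, adjusted p = 0.0622), and Adam8, a metalloprotease of myeloid cells, from 10.1 ± 5.63 to 2.07 ± 0.393 (log2 -1.92, label-adjusted -0.99, adjusted p = 0.194).

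Side values of the KO pools were read for genes in which the label went with the level in a group whose labels name no antibody. With 2 KO pools per label, such an order can also arise by chance. Cib3, a calcium-binding protein, read 10.4, 5.81, 6.18 and 6.61 in control and 52.4, 34.7, 27.7 and 27.2 in anti-Ly6G pools (log2 2.20, label-adjusted 0.75, adjusted p = 0.202). In KO pools 1 and 2, labelled C57, it read 6.38 and 5.86, and in KO pools 3 and 4, labelled NZB, 16.2 and 19.1. Calml4, a calmodulin relative, read 2.71, 4.71, 4.51 and 2.77 in control and 20.9, 8.31, 20.4 and 15.3 in anti-Ly6G pools (log2 1.96, label-adjusted 0.40, adjusted p = 0.617), and its KO pools read 1.89, 1.48, 7.03 and 4.93. Fgf21 gave the same order, with KO pools at 25.03, 23.3, 50.8 and 39.5 (label-adjusted 0.18, adjusted p = 0.657). The opposite order stood in C8b, where KO pools read 90.8, 118, 72.03 and 73.2 and the label-adjusted value rose to 1.21. For Sqle, Hsph1 and Vldlr the KO means were below every anti-Ly6G pool under both labels, at 7.55, 12.4 and 3.01 under C57 and 8.67, 14.6 and 2.60 under NZB.

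Many of the largest changes lay in genes with near-identical copies elsewhere in the genome, and some of these came in opposite pairs. Of genes with at least 90% unique 25-mers 0.223% changed at least 4-fold, against 5.50% of those with under 30% unique. Of the 65 genes with such a change 48 rose, and 24 were pseudogenes, 21 of them higher. Processed pseudogenes alone numbered 172 of the 11791 genes, and 33.7% of them passed, against 30.4% of all genes. Atp6v0c encodes the proton-conducting ring subunit of the vacuolar ATPase, which acidifies lysosomes. It lies on chromosome 17 (GRCm38, 24163866 to 24169702, minus strand), and its processed pseudogene Atp6v0c-ps2 on chromosome 6 (37806086 to 37806550, plus strand). Over 465 aligned bases of the GENCODE vM21 transcripts 464 were identical. The stretch around the 1 differing base, in capitals, is shown because a read from this alignment that does not cross it fits both genes equally. This covers only a part of Atp6v0c, as 87.7% of the 25-mers of its transcripts were unique.
Atp6v0c, transcript bases 158 to 217: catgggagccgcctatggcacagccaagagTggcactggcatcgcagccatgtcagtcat
Atp6v0c-ps2, transcript bases 81 to 140: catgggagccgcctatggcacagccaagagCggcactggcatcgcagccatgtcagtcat

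Atp6v0c read 173, 175, 175 and 190.4 in control pools and 35.8, 38.4, 41.2 and 40.2 in anti-Ly6G pools (log2 -2.18 ± 0.06 SE, adjusted p = 3.16e-11). Atp6v0c-ps2 read 0.819, 0.351, 0.713 and 0.396 in control and 99.1, 101, 128 and 136 in anti-Ly6G pools, and 0, 0.686, 0 and 0 in KO pools. Their sum was 179 ± 8.03 in control, 155 ± 20.8 in anti-Ly6G and 185 in KO pools, so the sum moved far less than either part. The KO pools labelled NZB, at 182 for the gene and 0 for the copy, read like the control pools. Hmga1, a chromatin architectural protein gene on chromosome 17, and its copy Hmga1b on chromosome 11, which differ at 3 of 1602 bases, gave 51.3 ± 3.71 to 10.4 ± 1.42 and 0.0661 ± 0.132 to 20.3 ± 3.06, with a summed level of 51.4 ± 3.82 in control and 30.7 ± 2.75 in anti-Ly6G pools. For the ribosomal protein Rps13 the exchange was between copies: Rps13-ps2 went from 87.6 ± 5.18 to 7.90 ± 7.88 (label-adjusted -4.40, adjusted p = 0.0612) and Rps13-ps1 from 0.110 ± 0.221 to 58.5 ± 2.72, while all 3 members summed to 137 ± 5.63 and 111 ± 6.68. Rps2 went from 243 ± 9.54 to 168 ± 10.3 (log2 -0.53, label-adjusted -0.35, adjusted p = 0.0674, 48.9% unique) as Rps2-ps10, under 0.2 in all control pools, reached 41.95 ± 4.75. That pair's sum was 243 ± 9.54 and 210 ± 13.2. Tma7, a small translation factor, went from 28.1 ± 1.13 to 18.98 ± 0.248 as Tma7-ps went from 0.725 ± 0.600 to 9.49 ± 1.89 (label-adjusted 1.46, adjusted p = 0.235), and their sum stayed at 28.8 ± 1.05 and 28.5 ± 1.92. In each copy under 13% of 25-mers were unique. The share in the parents was 87.7% for Atp6v0c, 35.4% for Hmga1, 75.4% for Rps13 and 77.7% for Tma7. These copies and parents, other than Rps2, were chosen after their values were seen.

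Symbols linked 48 copies to a parent gene in the table, most of them annotated as pseudogenes. Of these copies 20 passed, 7 rose at least 4-fold and 3 fell at least 4-fold. Where a copy rose at least 4-fold, the parent fell in 3 cases, rose in 1 and did not pass in 3. In 5 of the 7 the copy was under a signal of 1 in every control pool, and in 6 of the 7 in every KO pool. The protocol does not say how reads that fit several genes were assigned, and whether the exchange lies in the RNA, in the genomes of the animals or in the assignment of reads was not tested. Levels of parents and copies are therefore uncertain taken singly, and their sums stand beside them.

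**Figure D5:**
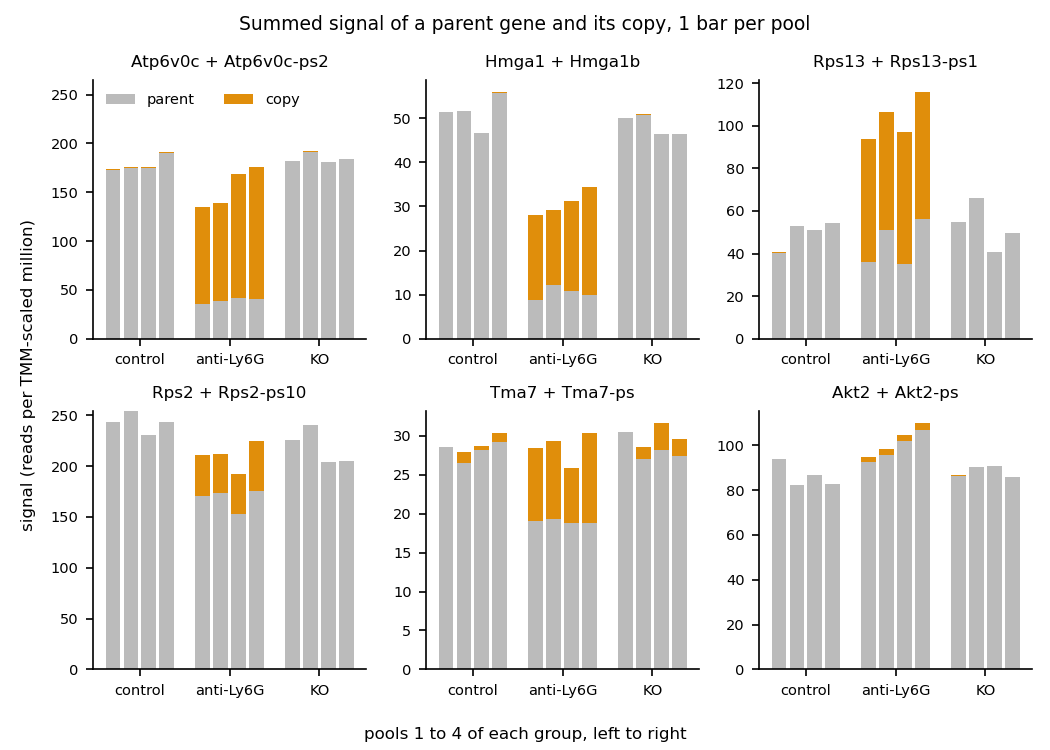
Signal (vertical axis, in the deposited unit) of 6 parent genes (grey) and a copy of each (orange) stacked in 1 bar per pool, for pools 1 to 4 of control, anti-Ly6G and KO. The orange share is large in the 4 anti-Ly6G pools of Atp6v0c, Hmga1 and Rps13 and near 0 in control and KO pools, and the summed bars of Tma7 are of like height in control and anti-Ly6G pools.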

How the data were processed

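RNA of mouse liver pools was sequenced on the Illumina GA IIx, per the labels. The submitters' processing notes name cutadapt 1.2.1, Bowtie2 2.0.6, RSEM 1.2.3, edgeR and the build GRCm38, without their roles. The table of 11791 genes holds signal made by the authors: values were whole multiples of 1 read (100% within 0.01), and the deposited scaling equals TMM in all 12 libraries. The reads recovered from this served the count tests. Whether intermediate estimates were fractional was not stated.

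The main test was limma 3.58.1 (R 4.3.3) with a mean-variance trend on log2(signal + 0.5) over the 12 libraries, with group as the only term and Benjamini-Hochberg adjustment. Genes needed a mean of at least 1 in a group, which removed 0. The scale understates changes of low genes. Groups came from the labels. Alternatives were a pseudocount of 0.1 or 1, no filter, a mean of at least 5, median-of-ratios or quantile scaling, the 8 libraries alone, a replicate block, the mitochondria label as a covariate, edgeR 4.0.16, DESeq2 1.42.0, and leaving out each library. The test was checked on simulated data of this comparison with 200 of 11791 genes changed: it recovered 100% of 100 genes changed by 2 on the log2 scale and 93% of 100 changed by 1, and called 8 unchanged genes. The simulation held no smaller change and no effect of the label, whereas 64.3% of the calls here were under 1.5-fold. Recovery of such small changes was not tested.

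Names and coordinates came from GENCODE vM21 (11672 of 11791 IDs), promoters from RefSeq (GRCm38.p6). Unique 25-mers are those of a gene's transcripts found in no other gene. A value under 90% marks a level as uncertain. Named were the 12 largest rises and 12 largest falls among protein-coding genes (at least 90% unique, a mean of at least 5 in the higher group, no overlap), the 10 passing genes of highest mean, up to 5 passing members of lowest p in each of 50 lists, the highest member of lists with none, and 7 set names, of which Mapk13 and Ly6g were not analysed here. From this set the text draws its names. A few results are not reported here. The comparison, the lists and the names were chosen with earlier results of these data known.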

Additional observations from a re-analysis of the deposited data

Results flagged for a closer look

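In groups of 4 pools, a pool was singled out where its gap to the nearest other pool took up more of the group's range than Dixon's 95% limit for 4 values allows. This held in 20 of 316 groups looked at, and chance does it in about 1 of 20. Among control pools, pool 4 stood apart in Atp6v0c (190), Ces1d (344), Cyfip2 (6.08), Trem2 (21.5), Ugdh (83.7), Hmga1b (0.264) and Rps2-ps10 (0.198), pool 3 in Bst2 (116), and pool 1 in Srebf1 (106) and Rps13-ps1 (0.441). The last 2 of the values of pool 4, and that of Rps13-ps1, were those of copies near 0. Among anti-Ly6G pools, pool 1 stood apart in Acpp (1.71), Adgre1 (24) and Reln (47.8), pool 2 in Rpl34-ps1 (0.659), pool 3 in Cyp2c39 (507), Itgam (3.53), Lcn2 (488) and Lgr5 (12.4), and pool 4 in Clec4d (0.808) and Rps2-ps10 (49.1). Each of these genes that had passed still passed, in the same direction, in the fit without that pool. Adgre1 and Lcn2 had not passed.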

How the results depend on the processing

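With the mitochondria label as a covariate 973 genes passed, 517 higher and 456 lower, against 3580, 1775 and 1805. Its standard errors are larger, since the label's effect rests on KO pools. All other settings kept the counts within 1.5 times. Leaving out 1 library gave 2791 to 3646 genes, 1363 to 1832 higher and 1389 to 1814 lower. Pools of the same number did not vary together over all genes (correlation of deviations -0.108, -0.0108, 0.0188 and -0.0330). The labels state no pairing, and these values cannot tell whether pools of the same number were handled together. A fit with a replicate block gave 3445 genes, 1699 higher and 1746 lower. Among the named genes the block ended the call of Csf3r alone. edgeR passed 3558 genes and DESeq2 3789. The 8 libraries alone gave 2933, and a mean of at least 5 gave 3013. Other scalings moved the median change of all genes to -0.00459 and -0.000202.

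With the label as covariate the sign turned in Clec4f (-0.36), Lyz2 (0.0429) and Rps13 (0.24), which had not passed, and in Gm13456 (-1.30, from 5.35), which also lost its call in 6 of 8 fits with 1 library left out and with edgeR. Cxcr2 turned under quantile scaling (0.0428) and without anti-Ly6G 4, with leaving out 1 library giving -0.11 to 0.10. Adgre1 turned without control 4, with leaving out 1 library giving -0.29 to 0.0666. The cause was not tested. At 3 reads the signal is 0.143 to 0.242, so differences among copies below that level were not detectable.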

Other observations

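Some values fall in no comparison above. Gm13456, an annotated locus of 21.8% unique 25-mers, read 0.252, 0.251, 53.6 and 34.8 in control pools, 237, 229.8, 223 and 242 in anti-Ly6G pools and 0, 0, 47.7 and 51.8 in KO pools. Control pools 1 and 2 stood near 0 and control pools 3 and 4 did not, and in the KO pools those near 0 were labelled C57. Rpl34-ps1, a copy of a ribosomal protein gene with 0% of its 25-mers unique, read 90, 0.301, 85.9 and 1.32 in control, 0, 0.659, 0 and 0 in anti-Ly6G and 79.3, 90.8, 79.1 and 39.8 in KO pools. Both were chosen after their values were seen.

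Genes of heme synthesis and iron handling had 4 of 32 higher and 2 lower (label-adjusted 2 up and 2 down). Alad, which makes the pyrrole unit of heme, went from 73.5 ± 2.87 to 141 ± 14.7 (log2 0.93). Steap3, a ferrireductase, went from 29.1 ± 3.28 to 13.8 ± 2.91 (log2 -1.07). Nuclear receptors split 5 to 5 of 30 (label-adjusted 1 up and 1 down), among them Nr1h3, the oxysterol receptor LXR alpha, from 69.4 ± 2.49 to 98.6 ± 2.64 (log2 0.50). Male-biased liver genes had 7 of 24 higher and 2 lower (label-adjusted 4 up and 0 down), and female-biased ones 4 of 17 higher and 1 lower (label-adjusted 3 up and 0 down). Cell cycle genes had 2 of 37 higher and 5 lower (label-adjusted 0 up and 0 down), a smaller share than over all genes. Nuclear genes of the respiratory chain had 5 of 45 higher and 0 lower (label-adjusted 2 up and 0 down), among them Cox6b1, a subunit of cytochrome oxidase, from 196 ± 14.7 to 281 ± 16.03 (log2 0.52).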
